A study of Mus musculus with 6 samples.

Results

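Acetylation of histone H3 at lysine 27 (H3K27ac) was profiled by ChIP-seq in mouse retina. The regions described here are those that lay in exons away from any transcription start site (TSS) of a basic gene annotation. Peaks of 6 deposited lists were merged into 39942 regions. Members were chosen by their calls: a region was kept if it was covered in 2 or more of the lists, if its midpoint was in an exon of the GENCODE vM21 basic annotation (GRCm38), and if both edges were more than 2.5 kb from every TSS of that annotation. These criteria left 526 exonic regions of the 24988 that were called in 2 or more lists. Among the others were 5912 intronic and 2905 intergenic regions at the same distance, and 15645 nearer to a TSS.

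The retinas came from wild-type mice of 3 months of age at the first treatment. In the 4xIOP group the pressure of 1 eye was raised to 30 mmHg for 1 h, 4 times in all at biweekly intervals, and 3 such retinas were compared with 3 retinas of untreated contralateral eyes (control), all collected 2 days after the last elevation. Each library was made from the whole retina of a single eye, so a weaker peak in a rare cell type and fewer cells of that type cannot be told apart. The protocol shared by all samples describes injection of dasatinib or vehicle, and the sample labels do not say whether these animals received either. In 4 of the 6 samples (replicates 1 and 2 of both groups) the list carries the name of the opposite group. Groups were taken from the labels, and every direction between them holds for the samples as labelled.

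The lists held 16195 to 36509 peaks, with the fewest in 4xIOP replicate 3 and the most in control replicate 3. The tissue was checked by peaks within 2.5 kb of marker genes. Promoters of all 6 rod genes examined, among them Pde6b and Sag, carried a peak in every list, whereas the 3 microglial and the 2 pigment epithelium genes carried a peak in no list. Of 5 genes that mark other organs, 0 or 1 was marked per list. Of the less frequent retinal cells, Prkca of bipolar cells and Glul of Müller glia were marked in all lists, whereas Arr3 of cones, Pax6 and Pou4f1 of amacrine and ganglion cells, and Rlbp1 and Sox9 of Müller glia were marked in none.

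H3K27ac is deposited by the acetyltransferases CBP and p300 at active promoters and enhancers, and is removed by histone deacetylases. Most enhancers known from such maps lie in introns or between genes. Coding exons can also carry enhancer activity, in which case the same bases are read both as protein sequence and by transcription factors. A region within an exon may belong to a start site that the annotation lacks, and annotation is therefore examined with the regions themselves. The height of a peak is given below as its fold percentile. This is the rank, from 0 to 100, of the authors' fold enrichment over local background among all peaks of the same list.

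The bases under 4 of the highest regions are shown, since these regions were centred in protein-coding sequence and called in all lists. Each is the 300 bp around the summit of highest percentile, on the strand of the gene, taken from GRCm38.p6 (RefSeq). Capitals mark coding bases and lower case marks intron. The windows are chr12:3960104-3960403 (plus strand) in Pomc, chr17:32924869-32925168 (minus strand) in Cyp4f13, chr4:46507079-46507378 (minus strand) in Trim14 and chr10:81643261-81643560 (plus strand) in Ankrd24.
Pomc: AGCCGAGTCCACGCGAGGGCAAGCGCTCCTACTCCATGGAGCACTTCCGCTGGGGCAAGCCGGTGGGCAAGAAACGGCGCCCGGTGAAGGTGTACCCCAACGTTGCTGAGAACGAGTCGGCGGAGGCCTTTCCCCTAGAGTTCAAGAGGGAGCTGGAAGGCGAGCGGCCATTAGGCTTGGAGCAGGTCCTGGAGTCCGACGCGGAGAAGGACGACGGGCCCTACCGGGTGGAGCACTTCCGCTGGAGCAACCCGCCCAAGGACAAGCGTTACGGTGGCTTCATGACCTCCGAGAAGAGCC
Cyp4f13: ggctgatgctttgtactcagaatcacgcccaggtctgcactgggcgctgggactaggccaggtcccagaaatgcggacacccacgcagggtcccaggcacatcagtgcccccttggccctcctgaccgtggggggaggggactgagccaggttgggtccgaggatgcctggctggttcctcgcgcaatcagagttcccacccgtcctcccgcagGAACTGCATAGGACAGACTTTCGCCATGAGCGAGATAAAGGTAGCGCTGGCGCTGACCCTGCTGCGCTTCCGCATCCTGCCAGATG
Trim14: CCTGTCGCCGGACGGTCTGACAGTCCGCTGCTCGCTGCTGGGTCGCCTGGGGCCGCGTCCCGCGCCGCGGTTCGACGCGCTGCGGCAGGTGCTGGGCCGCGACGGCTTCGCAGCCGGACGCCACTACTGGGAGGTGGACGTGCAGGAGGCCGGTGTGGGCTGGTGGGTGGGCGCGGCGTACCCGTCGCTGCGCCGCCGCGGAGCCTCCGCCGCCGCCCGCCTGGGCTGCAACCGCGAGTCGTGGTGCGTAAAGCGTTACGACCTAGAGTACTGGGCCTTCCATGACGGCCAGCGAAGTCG
Ankrd24: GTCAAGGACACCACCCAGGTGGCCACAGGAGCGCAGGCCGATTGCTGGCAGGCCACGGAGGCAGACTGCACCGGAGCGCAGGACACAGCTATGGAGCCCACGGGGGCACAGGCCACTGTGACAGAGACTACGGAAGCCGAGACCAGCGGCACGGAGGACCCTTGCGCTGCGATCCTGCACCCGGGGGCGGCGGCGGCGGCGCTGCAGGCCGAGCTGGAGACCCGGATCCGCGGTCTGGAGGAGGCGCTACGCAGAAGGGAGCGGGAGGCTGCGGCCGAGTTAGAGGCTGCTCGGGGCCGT
All 4 windows were rich in G and C, from 63.3% in Cyp4f13 to 73.7% in Trim14. The Trim14 window held 46 CpG dinucleotides, a ratio of 1.14 to the number expected from its base composition. That of Pomc held 26 (0.846), that of Ankrd24 held 29 (0.784) and that of Cyp4f13 held 16 (0.532). Of the windows 3 were coding throughout, and the Cyp4f13 window crossed an intron boundary with 86 coding bases, its summit lying in the intron.

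Of the 526 exonic regions, 302 (57.4%) were centred in coding sequence, 169 (32.1%) in a 3' untranslated region (UTR), 45 (8.56%) in an exon of a noncoding transcript and 10 in a 5' UTR. The last exon of a transcript held 291 of them (55.3%), an internal exon 229 and a single-exon gene 6. Protein-coding genes were hosts of 481 regions and lincRNA genes of 26. The median region was 595 bp wide and the exon below it 980.5 bp long, and 230 regions (43.7%) were wider than their exon. In 416 (79.1%) the summit of highest percentile was itself in an exon. The median distance to a TSS was 8177 bp, and the range ran from 2501 to 207249 bp. The regions were spread over 492 host genes. Zbtb34, a zinc finger and BTB domain gene, held 3 regions in the 3' UTR of its last exon, and no other gene held more than 2. The first genes with 2, in alphabetical order, were A430078I02Rik, A930004D18Rik and Atrn. The antisense gene A430078I02Rik held a region in 6 lists (chr6:86472430-86473301, mean percentile 53.2) and another in the 3 control lists (chr6:86471750-86472178, 41.8). At A930004D18Rik each region was in 2 lists, low in both (chr2:18026539-18026838, 7.03, and chr2:18027658-18028356, 5.12). These lay 411 and 409 bp from the TSS of a curated RefSeq transcript.

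Set against the amount of sequence, coding bases more than 2.5 kb from a TSS held 11.5 regions per Mb, 3' UTRs 6.32 and noncoding exons 4.83. The highest density, 25.6 per Mb, was that of 5' UTRs, and it rests on 10 regions in 0.391 Mb. Intronic sequence held 5.96 and intergenic sequence 2.19 regions per Mb. Exons made up 2.63% of the sequence at this distance and 5.63% of the regions in it. These densities are given as a description, since the calls themselves chose the regions.

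The choice of annotation decided how far from a start site the regions were. Of the 526 regions, 185 (35.2%) lay within 2.5 kb of a TSS in the comprehensive set of the same GENCODE release, and 65 within 2.5 kb of a RefSeq TSS, of which 15 belonged to curated RefSeq transcripts. In all, 314 regions were past 2.5 kb in all 3 sets. Their median fold percentile was 40.3, and that of the 212 regions near a TSS of either other set was 41.3. The Cyp4f13 region was 113 bp and the Ankrd24 region 1 bp from a TSS of the comprehensive set, and the Pomc and Trim14 regions were far from TSSs in every set (at least 4575 and 11498 bp).

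Members just inside and just outside the thresholds were close in height. Regions in exactly 2 lists (161) had a median percentile of 36.0, and the 513 exonic regions found in 1 list only had a median of 34.0. The 68 regions up to 3500 bp from a TSS had a median of 36.3. For the 67 exonic regions left out at 1500 to 2500 bp it was 33.2.

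Each list called between 190 and 497 of the exonic regions. The controls called 353, 286 and 497 in replicates 1 to 3, and the 4xIOP lists 313, 339 and 190. The most were in the longest list and the fewest in the shortest, and the groups overlapped. As a share of the recurrent regions called in the same list, they made up 1.85%, 1.66% and 2.05% in control and 1.74%, 1.86% and 1.34% in 4xIOP. In every list coding sequence held the largest part, from 115 of 190 in 4xIOP replicate 3 to 284 of 497 in control replicate 3. The difference between group means was -98.0 regions, and -3.67 when every list was cut to as many of its top peaks as the shortest one held. It was -27 among lists whose shortest peak exceeded 200 bp (control replicate 1, 4xIOP replicates 1 and 2) and -201.5 among the others. Because calls chose the members, these counts are given as a description, with no p.

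**Figure D1:**
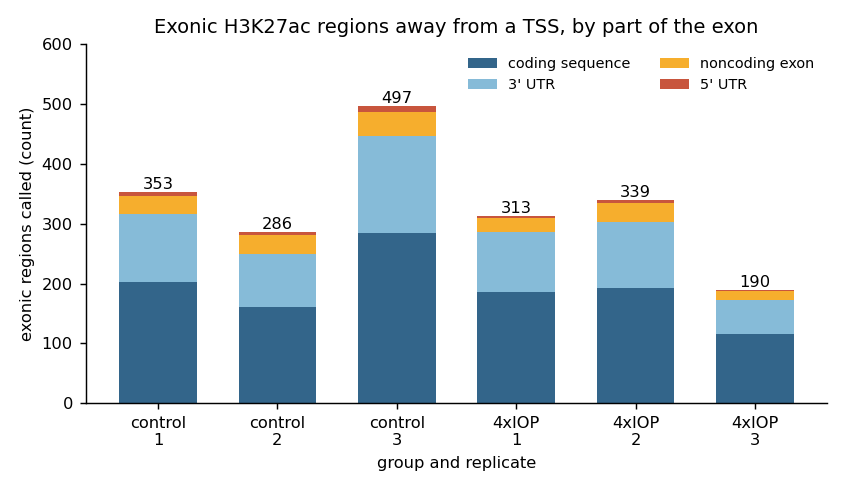
Exonic regions away from a TSS called in each of the 6 lists (count), stacked by the part of the exon at the midpoint. Totals above the bars run from 190 in 4xIOP replicate 3 to 497 in control replicate 3, and coding sequence is the largest part in each list.

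All 6 lists shared 116 of the exonic regions (22.1%), against 17.4% of the intronic, 22.7% of the intergenic and 55.8% of the regions near a TSS. The share was alike in coding sequence (22.2%) and in 3' UTRs (21.3%). Of the 116 shared regions, 33 lay above percentile 50 in every list, 7 of them above 90, and 26 lay below 50 in every list.

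Peak height was compared between classes within each list. Exonic regions were higher than intronic regions in 6 of 6 lists. Their median fold percentiles were 40.1, 39.7 and 49.4 for the controls (replicates 1 to 3) and 40.0, 37.6 and 34.9 for the 4xIOP lists. For intronic regions they were 25.9, 24.97 and 35.0, and 26.0, 27.4 and 21.8. The mean within-list difference was 13.4 ± 1.69 percentile points (SD, n = 6, exact sign-flip permutation p = 0.031, two-sided, the smallest that 6 lists allow). The sign-flip tests here and below take the lists as independent, although a control and a treated retina may come from 1 mouse. Calls in these same lists also chose the regions of both classes. After Benjamini-Hochberg adjustment over the 7 comparisons made, the exact sign-flip p was 0.0729, which does not pass 0.05. With 6 lists no exact sign-flip p could pass 0.05 after this adjustment, so the adjusted values cannot decide. Against intergenic regions the difference was 1.90 ± 2.35 points and positive in 5 of 6 lists (n = 6, exact sign-flip permutation p = 0.125, adjusted 0.219). It changed sign, to -1.92, when peaks were ranked by the authors' −log10 p in place of fold. On that ranking the difference to intronic regions became 4.69 points, still with the same sign. Covered length differed little: the median exonic region was covered over 25.4 ± 14.1 bp more than the median intronic one (higher in 6 of 6 lists, exact sign-flip permutation p = 0.031, adjusted 0.0729).

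**Figure D2:**
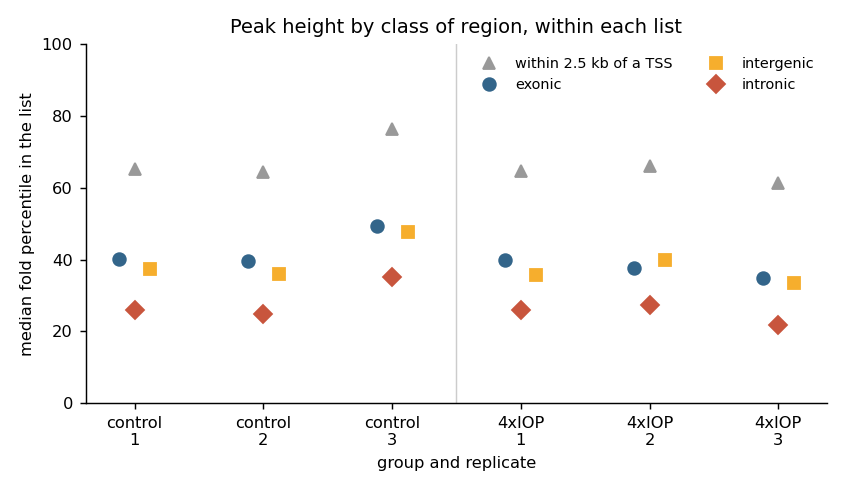
Median fold percentile of the regions called in each list (y axis, 0 to 100), for 4 classes of region. In all 6 lists exonic regions lie above intronic ones, by 10.1 to 14.8 points, and below regions within 2.5 kb of a TSS, whose medians run from 61.4 to 76.4.

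The fold is a ratio, and its numerator and denominator were therefore recovered from the deposited fold and p of each peak. Exonic peaks did not hold more fragments at the summit than intronic peaks. For exonic regions the control medians were 25, 30.5 and 36 fragments, and those of 4xIOP were 27, 28 and 23. For intronic regions they were 29, 32 and 36, and 29, 30 and 26. The local background was lower around exonic peaks in each list, where the control medians were 5.63, 7.04 and 7.61 fragments and the 4xIOP medians 5.77, 5.99 and 5.21. Around intronic peaks it was 7.77, 9.40 and 9.41, and 7.65, 8.03 and 6.69. The higher fold percentile of exonic regions thus went with a lower denominator and not with a taller pile-up. These medians were inspected after the percentiles were known and were not tested. Fragments at a summit ranged from 9 to 135 over all exonic peaks, which limits the precision of any single fold.

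**Figure D3:**
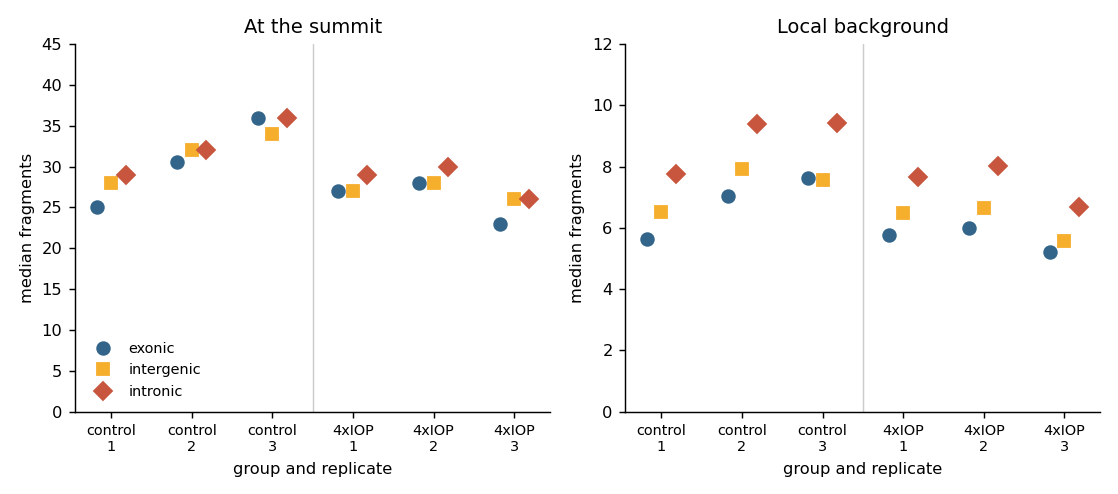
Median number of fragments at the summit (left) and in the local background (right) of exonic, intergenic and intronic peaks in each list. Exonic and intronic peaks have similar summits (23 to 36 and 26 to 36 fragments), while the background of exonic peaks is lower in every list.

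Base composition also separated the classes. The 300 bp around the summit had a median G+C of 54.3% in exonic, 50% in intronic and 51.0% in intergenic regions, and of 63.7% in regions near a TSS. It was 56.7% in coding and 51.3% in 3' UTR members. The ratio of observed to expected CpG was 0.314 in exonic, 0.194 in intronic and 0.734 in TSS regions. Among exonic, intronic and intergenic regions the windows richest in G+C were the highest. Exonic windows under 50% G+C had a median mean percentile of 31.6 (147 regions), those from 50% to 60% one of 37.2 (236) and those of 60% and over one of 54.7 (143). Intronic windows gave 28.1, 28.6 and 42.9 in the same bins, so exonic regions were the higher in each. Intergenic windows gave 35.2, 38.9 and 57.0, above the exonic values in each bin. Windows of 60% and over made up 27.2% of the exonic and 5.72% of the intronic regions. Whether composition accounts for the difference in height was not tested.

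**Figure D4:**
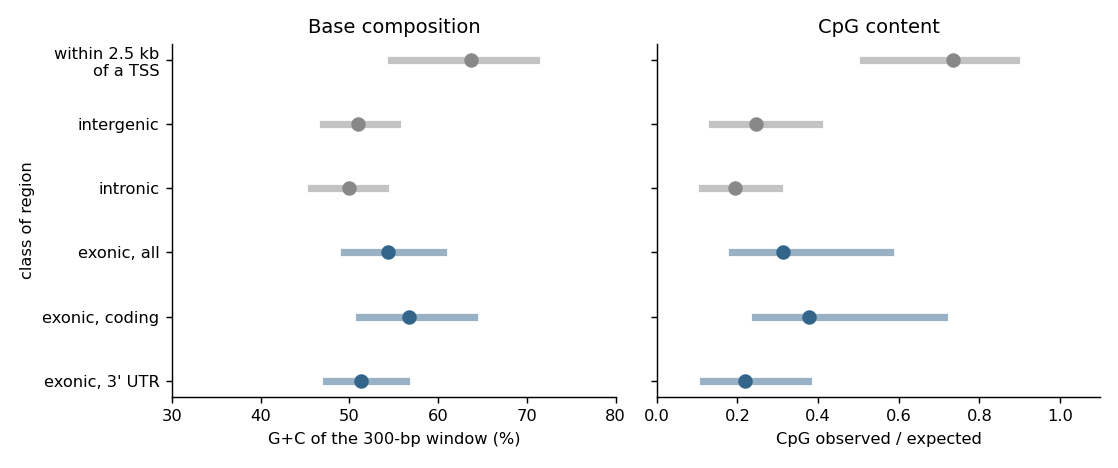
G+C content (%, left) and observed over expected CpG (right) of the 300 bp around the highest summit. Points are medians and bars run from the first to the third quartile; exonic regions (medians 54.3% and 0.314) lie between intronic regions and regions near a TSS.

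Within the exonic regions, those in coding sequence were compared with those in 3' UTRs. Coding members had the higher median percentile in 6 of 6 lists, with 43.7, 43.6 and 52.9 in control and 41.5, 39.2 and 34.7 in 4xIOP. For 3' UTR members the medians were 35.1, 30.0 and 46.2, and 36.4, 33.5 and 31.3. The mean difference was 7.20 ± 3.59 points (SD, n = 6, exact sign-flip permutation p = 0.031, adjusted 0.0729). It was 2.89 points when peaks were ranked by −log10 p (exact sign-flip permutation p = 0.375). In bins of equal G+C coding regions were the higher in each, with the widest gap under 50%. Medians for coding and 3' UTR regions were 35.1 and 31.5 under 50%, 37.3 and 36.7 from 50% to 60%, and 54.7 and 54.4 at 60% and over.

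Short motifs of transcription factors with known roles in retina or stress were counted on both strands of the same windows. TAATCC, the core recognised by the photoreceptor homeobox factors CRX and OTX2, was present in 37 of 526 exonic windows (7.03%), against 12.4% of intronic and 10.5% of intergenic windows and 7.06% of all RefSeq promoters of the same length. GGGCGG, bound by SP and KLF factors, was in 19.4% of exonic, 8.15% of intronic, 13.5% of intergenic and 48.0% of TSS windows. In coding members it reached 24.8% and in 3' UTR members 11.8%. TGANTCA (AP-1) was in 5.89% of exonic and 8.96% of intronic windows. AGGTCA, the core site of nuclear receptors, was in 18.3% and 20.9%, and an NF-κB pattern (GGGA and CC with any 4 bases between them) in 17.3% and 15.6%. Shares of short motifs move with base composition, and a match is not evidence of binding. Windows were mostly repeat-masked in 9 exonic regions (1.71%) and in 8.68% of intronic ones.

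The genes that host the regions mostly had a peak at their own promoters. This is given as a description, since calls in the same lists chose these genes. Of 448 protein-coding host genes, 247 (55.1%) had a peak within 2.5 kb of one of their TSSs in all 6 lists, against 39.5% of all 21938 coding genes. No list had a promoter peak in 85 host genes (19.0%), against 42.4% of all coding genes. Of the 105 members that were shared by all lists and lay in a coding gene, 24 had a host promoter that was marked in none.

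The regions with the highest mean percentile among those in all 6 lists were examined next. Among them was the lincRNA E030044B06Rik (chr19:40872820-40873895, last exon, mean percentile 99.3), where the control folds were 14.4, 11.8 and 13.8 and the 4xIOP folds 11.4, 11.3 and 7.85. Sprr2a1 (chr3:92218943-92219551, coding, 99.2) and Sprr2a2 (chr3:92253822-92254500, 3' UTR, 96.7) encode small proline-rich proteins known from the cornified envelope of skin. These 2 genes are near-identical copies, and how reads matching both were assigned is not given in the sources used here, so their values are uncertain. Lars2, the mitochondrial leucyl-tRNA synthetase, had its region in the 3' UTR (chr9:123461811-123462224, 98.5), 1984 bp from a RefSeq TSS. Pomc (chr12:3959545-3960760, 96.1) encodes the precursor of corticotropin and melanocyte-stimulating hormones. The peak lay in its last exon, and its folds were 6.59, 7.05 and 10.8 in control and 8.64, 8.25 and 7.94 in 4xIOP. Cyp4f13 (chr17:32924190-32925381, 94.4), a cytochrome P450, and Trim14 (chr4:46506653-46507427, 93.3), a tripartite motif protein of antiviral signalling, had regions centred in the last coding exon, although the summit at Cyp4f13 was in the adjoining intron. Promoters of both Sprr2a genes, of Pomc and of Cyp4f13 were marked in 0 lists, that of Trim14 in 2 and that of Lars2 in 6. The median fold of exonic peaks was 3.56 to 3.97 per list.

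Peaks in exons were then sought in lists of genes relevant to the tissue and the treatment. Over all protein-coding genes, 2.07% had a member in an exon. Of 39 photoreceptor genes, 15 bipolar, 19 Müller glia and astrocyte and 15 microglia genes, 0 had one. Nrl, the transcription factor that specifies rods, and Zfhx3 were the 2 of 41 retinal transcription factor genes. The Nrl region (chr14:55520533-55521147, last exon, coding) was in all 6 lists, with 64, 67 and 135 fragments in control and 67, 70 and 31 in 4xIOP. Its folds were nevertheless only 2.52, 2.49 and 2.93, and 2.61, 2.23 and 2.31, which placed it at a mean percentile of 6.29. It lay 3044 bp from a TSS of the basic set and 120 bp from one of the comprehensive set. It overlapped a RefSeq TSS, but was 3105 bp from a curated one, and its host promoter was marked in all lists.

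Tubb3, the neuronal beta-tubulin, was the 1 of 20 amacrine, horizontal and ganglion cell genes, with a region in its 3' UTR (chr8:123421393-123422080, 6 lists, mean percentile 26.1). Of 26 synapse genes, Unc13a, which primes synaptic vesicles (chr8:71642885-71643354, 3 lists, 55.7), and Syp had one. The Unc13a region lay 317 bp and the Tubb3 region 1447 bp from a TSS of the comprehensive set. Nfkb2, which encodes p100 and p52 of the NF-κB family, was the 1 of 40 TNF, NF-κB and immediate early genes. Its region covered exon 13 of 22 (chr19:46308779-46309219, all 6 lists). The percentiles were 68.5, 61.7 and 75.8 in control and 58.9, 35.2 and 17.3 in 4xIOP, so that all 3 controls were above all 4xIOP lists on this scale. Among the regions shared by all lists alone, the ranks were 46.5, 40.5 and 37.2 against 38.8, 18.9 and 11.2, where the groups overlapped. The limma difference was -0.58 ± 0.32 (SE) on the score scale described next (adjusted p = 0.9999).

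Of 40 chromatin and transcription regulators, 3 had members in coding exons. Kmt2a, a histone H3 lysine 4 methyltransferase, had 2 regions in its exon 3, of which chr9:44848435-44849479 was in all lists with 23.7, 21.3 and 42.1 as control percentiles and 31.5, 20.6 and 63.5 as those of 4xIOP. Hdac5, a histone deacetylase, was marked in all lists and Chd7, a nucleosome remodeller, in 4. The first Kmt2a region lay 251 bp and the Hdac5 region 78 bp from a TSS of the comprehensive set. Tln2, a talin that links integrins to actin, was the 1 of 30 actin, adhesion and scaffold genes (chr9:67217858-67219100, 5 lists). Counts of 0 to 3 genes per list allow no comparison of the lists with all coding genes.

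Control and 4xIOP were compared last. The median fold percentile of the exonic regions called in a list averaged 43.1 ± 5.46 over the control and 37.5 ± 2.51 over the 4xIOP lists (SD, n = 3 each). The difference was -5.58 points. It is given as a description with no p, because calls chose the members and some had qualified through the lists of 1 group alone. Over the 116 regions called in all lists the difference was -9.14 points. Ranked only among the regions shared by all lists, the direction turned for these 116 and the groups overlapped. Their medians were then 29.7, 32.2 and 26.96 in control and 32.1, 33.7 and 29.2 in 4xIOP. With lists cut to equal length the difference over the regions called in a list was -0.54 points. Without the cut it was -1.33 among the lists whose shortest peak exceeded 200 bp, -9.62 among the others, and -14.4 between the 2 lists whose own name is that of their label.

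Calls in only 1 of the groups are likewise a description, since the regions concerned qualified through the lists of that group. All 3 control lists and no 4xIOP list called 14 exonic regions (2.66% of 526), where the same held for 1.67% of all recurrent regions. The reverse held for 0 exonic regions and for 0.0240% of all. In lists of equal length 2 regions were exclusive to control (0.702%, against 0.662% of all recurrent regions) and 1 to 4xIOP (0.351%, against 0.339%). At a −log10 q of 5 or more, 5 were exclusive to control (1.60%, against 1.91%) and 0 to 4xIOP. Without control replicate 1 there were 38 regions exclusive to control (8.15%, against 4.81% of all), without control replicate 2 there were 54 (10.95%, against 6.73%) and without 4xIOP replicate 2 there were 26 (5.60%, against 3.71%). Without 4xIOP replicate 3, 4 regions were exclusive to 4xIOP (0.774%, against 0.327%). The 4 highest of the 14 were coding. Plin1, the perilipin of fat droplets (chr7:79721362-79721755), had percentiles of 40.1, 56.8 and 67.2 in the controls. Notch3, a Notch receptor (chr17:32133343-32133889, exon 30 of 33) had 54.4, 31.1 and 66.3. Cacna2d2, an auxiliary subunit of calcium channels (chr9:107526102-107527376), had 56.3, 27.7 and 61.5. Wnt10a, a secreted Wnt ligand (chr1:74803244-74803729), had 57.2, 19.2 and 50.2. The Notch3 and Cacna2d2 regions overlapped a TSS of the comprehensive set, and the Plin1 region was 1533 bp from one. An uncalled region fell under the threshold of its list and may still have been acetylated.

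For the 116 exonic regions called in all lists, folds were ranked among the 10529 regions that all lists shared, ranks were converted to normal scores, and the groups were compared with limma over all 10529. No exonic region was called at an adjusted p of 0.05 in either direction, as for 0% of all shared regions (higher) and 0% (lower). The smallest adjusted p of limma was 0.9999. At an unadjusted p under 0.05 there were 3 exonic regions (2.59%), all with the higher rank in 4xIOP, and 334 of all shared regions (3.17%). The 4xIOP lists ranked entirely above the controls at 8 exonic regions (6.90%, against 4.31% of all shared regions) and entirely below at 2 (1.72%, against 4.05%). Median ranks of the 116 regions were 29.7, 32.2 and 26.96 in control and 32.1, 33.7 and 29.2 in 4xIOP.

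The 3 regions with the smallest limma p in the higher direction were in Sprr2a2, in the lincRNA Gm13814 (chr2:92528856-92529544) and in Mboat4, the enzyme that acylates ghrelin (chr8:34123844-34124736, coding). Ranks at Sprr2a2 were 97.5, 90.1 and 73.3 in control and 99.7, 99.7 and 93.9 in 4xIOP. The groups overlapped there, and the score difference was 1.08 ± 0.40 (SE). At Gm13814 ranks were 82.6, 66.9 and 62.5 against 91.3, 85.6 and 94.0, without overlap, and at Mboat4 29.3, 31.1 and 45.0 against 76.8, 68.1 and 46.0, where the third 4xIOP list was within 1 point of the highest control.

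In the lower direction they were in Msl3l2, a relative of the chromatin factor MSL3 (chr10:56114754-56115962), in Cyp4f16 (chr17:32550426-32552122, 3' UTR) and in the lincRNA A830009L08Rik (chr13:91369912-91370891). At each of them the ranks of the groups overlapped, for example 84.0, 57.6 and 77.7 in control and 53.4, 42.7 and 59.0 in 4xIOP at Cyp4f16. Score differences were -0.73 ± 0.38, -0.61 ± 0.32 and -0.63 ± 0.34 (SE). The Msl3l2 region overlapped a TSS of the comprehensive set. None of these 6 regions passed the adjustment (limma, adjusted p of 0.9999 for each).

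**Figure D5:**
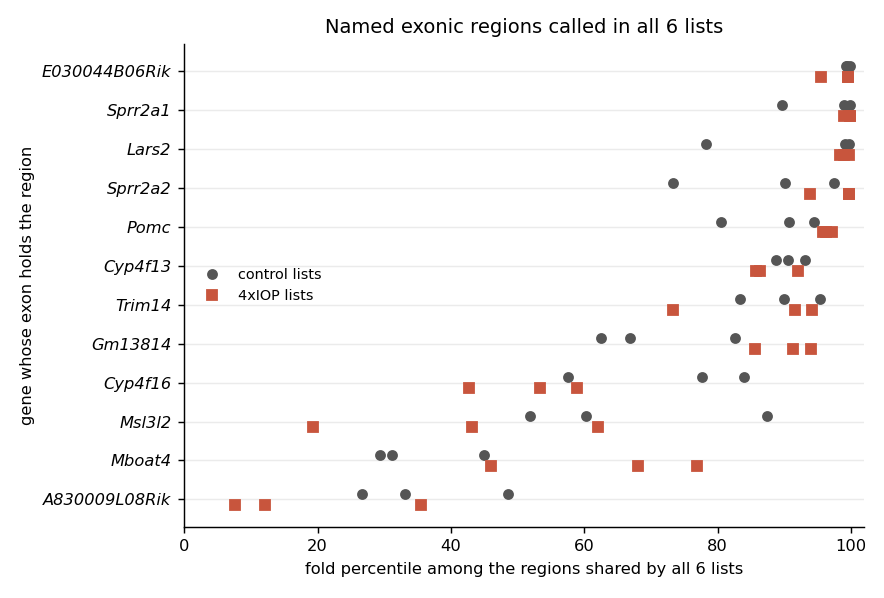
Rank of the fold of named exonic regions (x axis, percentile among the 10529 regions shared by all lists) in 3 control lists (circles) and 3 4xIOP lists (squares). At Gm13814, Pomc and Mboat4 the squares lie to the right of all circles, and at the other 9 regions the groups overlap.

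Pomc was among the 8 regions at which the groups did not overlap in rank among shared regions. Its ranks were 80.5, 90.7 and 94.5 in control and 97.2, 96.2 and 95.8 in 4xIOP, and its score difference of 0.55 ± 0.31 (SE) had an unadjusted limma p of 0.0962 and an adjusted p of 0.9999. Atrn, an attractin gene with 2 regions in its last exon, was another, with 14.0, 16.7 and 12.5 against 32.4, 22.4 and 44.0 at chr2:131027129-131028277. On the percentile among all peaks of a list the groups overlapped at Pomc (90.1, 94.8 and 98.3 against 98.5, 98.0 and 97.0), at Atrn (28.7, 34.3 and 46.1 against 52.0, 40.2 and 57.0) and at Mboat4 (51.8, 52.7 and 80.2 against 87.1, 82.1 and 58.8).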

How the data were processed

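H3K27ac ChIP-seq was performed on 6 mouse retinas (antibody ab4729). Per the submitters' processing notes, STAR 2.7.8a, MACS2, HOMER and bedtools 2.29.2 were used with mm10. Caller settings and the use of an input control for these libraries are not given in the sources used here. Peaks were called per sample, and the deposited columns hold the fold (a ratio of pile-up to local background at the summit) with the −log10 p-value and the corresponding −log10 q-value. Total read depth is not in the lists, and the lists were filtered by the caller.

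Overlapping peaks of the autosomes and of X and Y were merged, and 36 to 56 peaks per list elsewhere were left out. Regions were annotated with GENCODE vM21 basic. Fragments and background were recovered from fold and −log10 p under the Poisson model of MACS2. Per-list values were compared by exact permutation of the 6 labels or exact sign flips within lists (two-sided), with Benjamini-Hochberg adjustment over 7 tests. Of these, the tests between groups (number, share and median percentile of members called) are not quoted, because calls chose the members. Shared regions were compared with limma 3.58.1 (R 4.3.3). Other steps used Python 3.11.15, pandas 2.3.3, scipy 1.17.1 and pysam 0.24.0, and the tests were tested on simulated data.

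The members, gene lists and rules were chosen with earlier results of these data known. Named regions were the 8 highest in all 6 lists (1 of them is not reported here), the 3 per direction with the smallest limma p, up to 4 per direction exclusive to a group, 1 per gene list, and the 4 genes with the most members (ties in alphabetical order). Sequences were the 4 highest coding members in all lists whose window had no UTR base. The remaining hits of a gene list (Hdac5, Chd7, Syp, Zfhx3 and a second Kmt2a region) were also named. Pomc and Atrn were singled out among the non-overlapping regions after their values were seen. Replicate numbers are not stated to mark the eyes of 1 animal, and p-values measure the spread between these libraries.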

Additional observations from a re-analysis of the deposited data

How the results depend on the processing

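Exonic regions had a higher fold percentile than intronic regions under all 15 alternatives (4.69 to 20.4 points), and coding than 3' UTR members under all 14 (2.89 to 10.4). No adjusted exact sign-flip p was under 0.05, which so few lists could not give. The difference to intergenic regions changed sign to -0.339 when a list had to cover 0.5 of a region and to -1.92 when peaks were ranked by −log10 p, and the cause was not tested. The difference in members called was -201.5 in the lists whose shortest peak did not exceed 200 bp and -307 between the 2 lists whose name matches their label. For the share of members these values were -0.513 and -0.712 percentage points, and with lists of equal length the share difference changed sign to 0.0268. The difference in median percentile was -1.33 in the lists whose shortest peak exceeded 200 bp and -14.4 between those 2 lists.

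Regions exclusive to control numbered 14, but 2 in lists cut to equal length, 5 when −log10 q had to reach 5, and 9 (2.23%, against 1.67% of all recurrent regions) under the comprehensive annotation, an alternative chosen after seeing the data. In lists of equal length 1 region was exclusive to 4xIOP. Leaving out 1 list gave 15 to 54 exclusive to control and 0 to 4 exclusive to 4xIOP. The 15 without control replicate 3 were 3.70% (2.79% of all), and the 20 and 21 without 4xIOP replicates 1 and 3 were both 4.06% (3.27% and 2.90% of all). It gave differences of -133.5 to -29.8 members called, -0.294 to -0.0458 points of share and -8.38 to -3.17 points of median percentile. Limma called 0 exonic regions under all 16 alternatives, with up to 9 at an unadjusted p under 0.05 (without 4xIOP replicate 3, 5.66% of members against 5.73% of all shared regions). With the replicate number as a block the differences were -98.0, -0.206 and -5.58, and limma called 0. Deviations of lists with the same number correlated at -0.0208, -0.0571 and -0.146. Such correlations of ranks over 3 lists per group cannot decide whether the numbers pair the lists. Only peaks above each list's threshold were available, which limits what an uncalled region shows.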
